A study of Mus musculus with 37 samples.

Results

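The Nodal pathway and its left-right partners were followed gene by gene in mouse tailbuds of 6 to 11 somites. The set held 9 genes of the 35542 in the count table, taken by symbol: the ligands Nodal, Gdf1 and Gdf3, the co-receptors Tdgf1 and Cfc1, the transcription factor Foxh1, and the secreted antagonists Lefty1, Lefty2 and Dand5. The set was chosen by the slope of Cfc1 on somite number, a fall, in the Smchd1wt embryos of these data, and the rule follows the members in both genotypes. The slope of Cfc1 is therefore given as a description in each genotype, as are all slopes in Smchd1wt embryos, and tests of slope are read for the other members in the Smchd1matΔ embryos. RNA-seq was run on single tailbuds of C57BL/6/Cast F1 embryos of embryonic day 8 to 8.5. The 21 Smchd1wt embryos were Smchd1[fl/+], from fl/fl mothers without Cre, in which floxed Smchd1 was intact. The 16 Smchd1matΔ embryos were Smchd1[del/+]. Their mothers were del/fl with the transgene MMTV-Cre, so 1 allele was already deleted throughout the mother, and Cre, active in the oocyte, removed the floxed one. All embryos received an unaltered Smchd1 allele from a Cast father. Smchd1matΔ embryos thus lacked the maternal supply and carried 1 working allele in place of 2. They also came from mothers with a deleted allele and with MMTV-Cre. These differences cannot be told apart here. At 6, 7, 8, 9, 10 and 11 somites there were 4, 4, 3, 3, 4 and 3 Smchd1wt embryos and 4, 3, 2, 2, 3 and 2 Smchd1matΔ embryos. Of these, 4, 1, 1, 2, 3 and 2 Smchd1wt and 4, 1, 2, 2, 1 and 1 Smchd1matΔ embryos were female, so sex and stage were not balanced. The labels do not name litters, so p-values measure the spread between these embryos.

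Nodal is a secreted ligand of the TGF-beta family that signals through activin receptors, with an EGF-CFC co-receptor (Tdgf1, also called Cripto, or Cfc1, also called Cryptic), to SMAD2 and SMAD3 and their DNA-binding partner FOXH1. Gdf1 and Gdf3 pair with Nodal in heterodimers. Lefty1 and Lefty2 are targets of the pathway that shut it off, and Dand5 (also called Cerl2) is a Nodal antagonist of the node that is cleared from the left side by ciliary flow. The pathway patterns the gastrula and then, around the first somite stages, carries the left signal from the node to the left lateral plate.

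The upstream sequences of the 2 co-receptors are shown because Cfc1, whose fall chose the set, had counts in all 37 embryos, while its paralog Tdgf1 was at 0 in 28 of them. Both are the 250 bases before the RefSeq start (GRCm38.p6), read 5′ to 3′ on the gene's strand, at chr1:34535398-34535647 (plus strand) for Cfc1 and chr9:110946159-110946408 (minus strand) for Tdgf1. Capitals mark the SMAD half-site (CAGAC on either strand) and the GC box (GGGCGG on either strand).
Cfc1: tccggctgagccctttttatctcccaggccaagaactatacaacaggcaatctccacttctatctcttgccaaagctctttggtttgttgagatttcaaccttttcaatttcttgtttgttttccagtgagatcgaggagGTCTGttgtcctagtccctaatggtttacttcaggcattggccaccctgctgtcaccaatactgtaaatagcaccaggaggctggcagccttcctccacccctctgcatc
Tdgf1: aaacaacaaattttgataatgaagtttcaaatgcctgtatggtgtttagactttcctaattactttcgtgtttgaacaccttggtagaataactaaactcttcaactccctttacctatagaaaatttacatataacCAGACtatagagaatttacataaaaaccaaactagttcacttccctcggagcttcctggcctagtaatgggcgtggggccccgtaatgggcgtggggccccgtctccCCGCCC
The half-site lay 110 bases before the start of Cfc1 and 113 before that of Tdgf1, and 49.6% of the 32851 RefSeq promoters of the same length (250 bases before to 50 after the start) held it. The GC box of Tdgf1 began 6 bases before the start; 35.7% of promoters held one, and that of Cfc1 did not. No match to the FOXH1 motif (AATNCACA), the SMAD palindrome (GTCTAGAC), the octamer (ATGCAAAT) or the TATA box (TATAAA), on either strand, lay in the promoters of Cfc1, Tdgf1, Nodal, Gdf1 or Dand5. Those motifs were in 3.6%, 0.213%, 1.74% and 13.6% of all promoters. Foxh1, Gdf3, Lefty1 and Lefty2 had no entry.

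Library totals ran from 916444 to 80579115 counts, with medians of 11959774 in Smchd1wt and 14215130 in Smchd1matΔ embryos. Smchd1 itself was at 149 ± 22.9 CPM (counts scaled to library size; SD, n = 21) in Smchd1wt and 88.8 ± 13.4 (n = 16) in Smchd1matΔ embryos, and fell by 0.74 on the log2 scale (SE 0.074, edgeR adjusted p = 1.27e-07). All 8 tailbud markers, such as T and Tbx6, averaged at least 1 CPM, and their summed level ran from 516 to 1321 CPM in Smchd1wt and from 820 to 1199.7 in Smchd1matΔ embryos. Some libraries stood apart: at 6 somites, Smchd1matΔ replicates 1 and 2 had 2.77% and 1.82% of counts at rRNA-like loci against at most 1.28% in any other library, and Smchd1matΔ replicate 3 was the shallowest. Values without them are given beside those members' results that they moved most. Because a tailbud is a mixture, fewer cells of a type and less RNA per cell cannot be told apart.

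Of the 9 members, 6 passed the filter on low counts over all stages: Nodal, Gdf1, Cfc1, Foxh1, Lefty2 and Dand5. Per kilobase of exon, the mean level over all 37 embryos ran from Foxh1 (9.92 ± 5.83 RPKM, SD) through Gdf1 (5.37 ± 2.45), Cfc1 (4.95 ± 3.80), Dand5 (2.38 ± 1.25), Lefty2 (1.28 ± 2.44) and Nodal (0.443 ± 0.451) to Lefty1 (0.105 ± 0.377), Gdf3 (0.0449 ± 0.0862) and Tdgf1 (0.0372 ± 0.143). No neighbours in that order differed beyond their spread, although Nodal was above Lefty1 in 34 of 37 embryos and Dand5 above Lefty2 in 31. The order pools stages over which Cfc1 and Foxh1 changed several-fold. The level of Gdf1 is uncertain, since all of its 1349 exonic bases lie within Cers1 on the same strand and its counts were 94.4% of those of Cers1 in all. For Cfc1, 27.8% of the exonic bases overlap Prss40 on the other strand. The count table gave Dand5 a longer extent (chr8:84815404-84832409) than the annotation used here for lengths, one that reaches into Gadd45gip1, so its level per kilobase is uncertain too.

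Cfc1, the EGF-CFC co-receptor (ENSMUSG00000026124, chr1:34535648-34544313), was lower at later stages in both genotypes, which is what the set was chosen for and is given with no test. In the 7 Smchd1matΔ embryos of 6 and 7 somites it was between 5.68 and 14.9 CPM with a median of 8.69. In the 5 of 10 and 11 somites it was at 2.01, 0.911, 1.05, 2.14 and 0.992 CPM. All of the later embryos were below all of the earlier ones, which held for 0.971% of the 14733 genes tested, and for Cfc1 nothing is read from that share. The fitted slope was -0.66 (SE 0.076) on the log2 scale per somite, so that the level fell by 36.8% per somite. The 2 embryos at 8 somites (5.46 and 3.07 CPM) and 1 of the 2 at 9 somites (2.56 CPM) lay between those ranges, and the other (2.02 CPM) lay within the later one. In the Smchd1wt embryos Cfc1 ran from 5.91 to 13.9 CPM (median 8.18, n = 8) at 6 and 7 somites and from 0.789 to 2.99 CPM (median 1.50, n = 7) at 10 and 11 somites, with a slope of -0.68 (SE 0.067). The slope of Prss40, which shares exonic bases with Cfc1, was -0.69 (SE 0.18, adjusted p = 0.0468) in Smchd1matΔ embryos at a lower level, with medians of 1.80 and 0.285 CPM at the 2 ends. Whether reads of Cfc1 were counted for Prss40 was not tested.

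**Figure D1:**
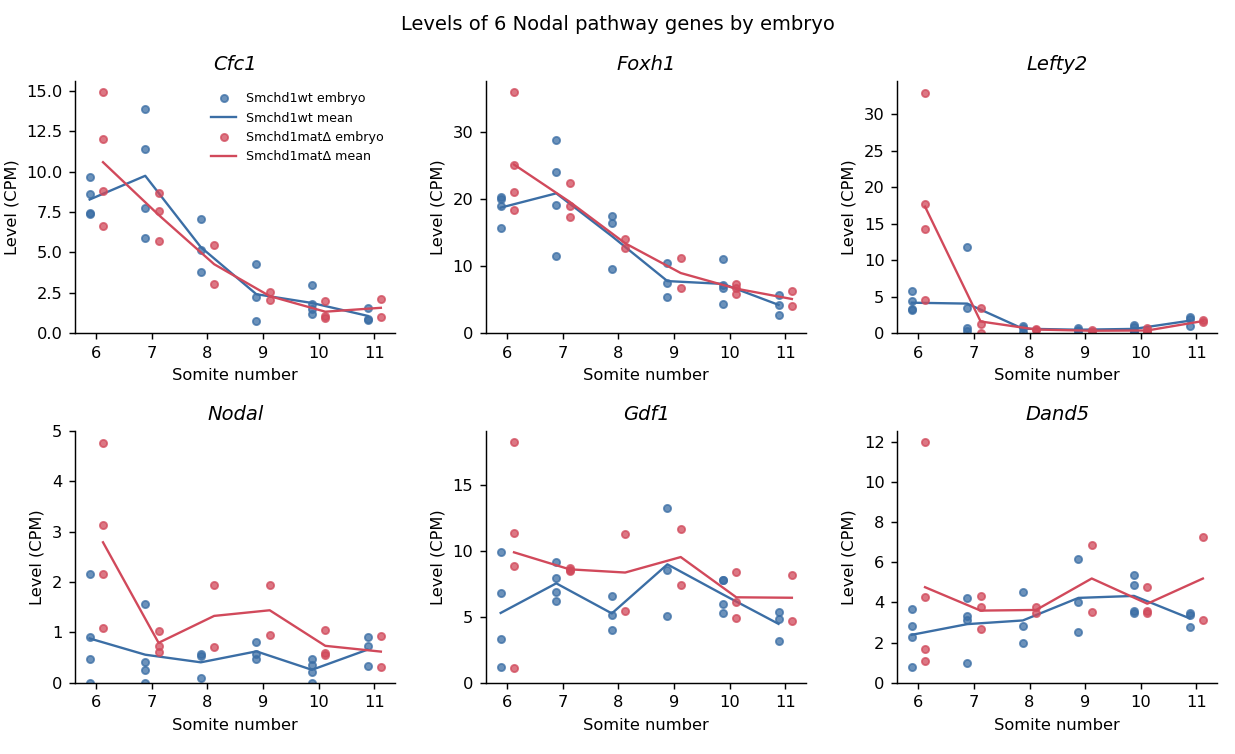
Level (CPM, linear axis) of the 6 members that passed the low-count filter, against somite number, with 1 point per embryo and lines through the stage means of Smchd1wt (blue) and Smchd1matΔ (red) embryos. The means of Cfc1 and Foxh1 step down between 7 and 9 somites in Smchd1wt embryos and fall from 6 somites on in Smchd1matΔ embryos. The genotypes overlap at each stage for every member shown except Nodal.

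Foxh1, the transcription factor that brings activated SMADs to DNA (ENSMUSG00000033837, chr15:76668225-76669948), fell too. In Smchd1matΔ embryos it ran from 17.4 to 35.9 CPM (median 21.1, n = 7) at 6 and 7 somites. At 10 and 11 somites it was at 6.69, 7.35, 5.84, 6.21 and 3.97 CPM, again with no overlap. Its slope was -0.49 (SE 0.047, adjusted p = 9.02e-06 by edgeR's quasi-likelihood test), so that the level fell by 28.7% per somite. In Smchd1wt embryos Foxh1 went from a median of 19.5 CPM (11.5 to 28.7) to one of 5.75 CPM (2.69 to 11.0), with a slope of -0.46 (SE 0.056). The 3′ end of Foxh1 lies 28 bases from that of Kifc2, a kinesin gene on the other strand, whose slope in Smchd1matΔ embryos was -0.40 (SE 0.054, adjusted p = 0.000311). Whether reads were shared across that gap was not tested.

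Of the 5 members other than Cfc1 that were tested for slope in Smchd1matΔ embryos, 1, Foxh1, passed an adjusted p of 0.05. Among all 16222 genes of that fit 1.1% were called as falling and 2.95% in either direction. The median slope of these 5 was -0.32 log2 per somite, beside 0.0025 for all genes tested. That median is the slope of Nodal, which did not pass the threshold (edgeR adjusted p = 0.172). Nodal's slope was -0.18 without the 2 rRNA-rich libraries and -0.11 without the 6-somite embryos, so nothing is read from the median about the set. DESeq2 also called 1 of the 5. With Cfc1 the count was 2 of 6. In Smchd1wt embryos, the contrast behind the choice, 2 of 6 members passed, where 3.55% of the 15667 genes fell and 6.61% were called in either direction; nothing is read from that count. As a description too, the Smchd1wt embryos of 10 and 11 somites lay entirely below those of 6 and 7 somites for Cfc1 and Foxh1, as for 0.312% of genes.

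**Figure D2:**
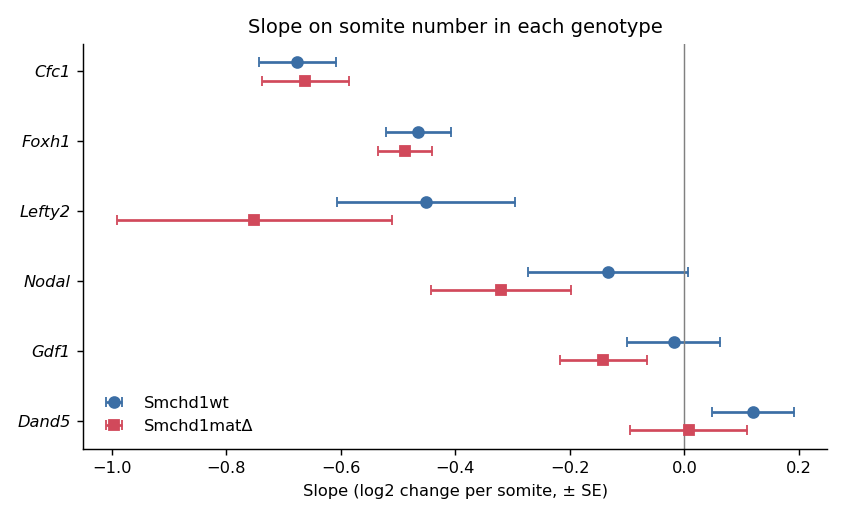
Slope on somite number (log2 change per somite, bars ± SE) of the 6 members in Smchd1wt (blue circles, a description) and Smchd1matΔ (red squares) embryos. The square of Cfc1 (-0.66) is a description too. That of Foxh1 (-0.49) lies far below 0 relative to its bar, and Lefty2 (-0.75) has the widest bar.

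Lefty2, the antagonist usually made in the left lateral plate (ENSMUSG00000066652, chr1:180893108-180899103), was variable at the earliest stages. Its levels at 6 somites were 3.12, 4.43, 3.36 and 5.73 CPM in Smchd1wt and 32.9, 17.6, 14.2 and 4.56 CPM in Smchd1matΔ embryos. Of the 4 Smchd1matΔ embryos, 3 were above every Smchd1wt embryo, and these were replicates 1 and 2, rich in rRNA-like counts, and replicate 3, whose 14.2 CPM rests on 13 counts. The difference was 2.08 log2 (SE 0.48), with an edgeR adjusted p of 0.862, and did not pass the threshold. Without replicates 1 and 2 it was 0.92 (SE 0.57), and without the shallow library as well it was 0.13 (SE 0.50). At 7 somites Lefty2 was at 11.8, 0.657, 0.251 and 3.47 CPM in Smchd1wt and at 0, 1.31 and 3.46 CPM in Smchd1matΔ embryos. No embryo of 8, 9 or 10 somites exceeded 1.16 CPM, and at 11 somites the levels were 0.959, 2.20 and 1.92 CPM in Smchd1wt and 1.50 and 1.80 CPM in Smchd1matΔ embryos, and the genotypes overlapped at each stage. Its slope in Smchd1matΔ embryos was -0.75 (SE 0.24, adjusted p = 0.103), beside -0.45 (SE 0.16) in Smchd1wt embryos. That slope was -0.39 (SE 0.22, adjusted p = 0.456) without the 2 rRNA-rich libraries and -0.080 (SE 0.24, adjusted p = 0.928) without the 6-somite embryos, and it passed the threshold without sex in the model (-0.87, adjusted p = 0.0156) and in females only (-1.02, adjusted p = 0.0435).

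Lefty1, the midline antagonist (ENSMUSG00000038793, chr1:180935022-180938400), had 72 counts over all embryos and was at 0 in 24 of 37. Of these counts 45 came from the 4 Smchd1matΔ embryos of 6 somites, with 26, 10, 0 and 9 counts (3.99, 0.728, 0 and 0.423 CPM). The 4 Smchd1wt embryos of that stage had 0, 0, 2 and 0 counts. The limit that a count of 0 allows, 3 counts, corresponded to between 0.0988 and 3.28 CPM in the libraries at 0, for counting error only. Lefty1 did not pass the filter. With no filter its slope in Smchd1matΔ embryos was -1.28 (SE 0.31, adjusted p = 0.0391), and without the 2 rRNA-rich libraries as well, which held 26 and 10 of the 51 counts, it was -0.66 (SE 0.30, adjusted p = 0.352). Lefty1 and Lefty2 share 197 words of 75 bases, the read length, which is 11.7% of those of Lefty1 and 7.77% of those of Lefty2, so a part of their reads cannot be assigned to either.

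The 6-somite Smchd1matΔ libraries with high Lefty2 and Lefty1 also differed in other genes. Cer1, a secreted Nodal antagonist of anterior endoderm and nascent paraxial mesoderm, was at 6.30 and 12.9 CPM in replicates 1 and 2 and at 0 in replicates 3 and 4, against at most 0.119 CPM in the Smchd1wt embryos of that stage. Lhx1, a LIM homeobox target of the pathway, was at 23.7 and 30.7 CPM in replicates 1 and 2, against 8.74 and 9.11 CPM in replicates 3 and 4 and 1.72 to 12.5 CPM in Smchd1wt embryos. The 5 somite markers (Meox1, Pax3, Uncx, Tbx18 and Myf5) summed to 27.2 and 54.1 CPM in replicates 1 and 2, to 13.1 and 13.3 CPM in replicates 3 and 4 and to 7.10 to 14.1 CPM in Smchd1wt embryos, of which Meox1 alone took 12.9 and 39.0 CPM. Pou5f1, a pluripotency factor of the epiblast, was at 96.5 and 50.6 CPM in replicates 1 and 2, against 37.1 and 30.4 CPM in replicates 3 and 4 and 24.9 to 37.8 CPM in Smchd1wt embryos. The epiblast markers summed to 286, 220, 162 and 192 CPM in the 4 replicates, beside 174 to 207 CPM in Smchd1wt embryos. Replicate 1 was also the highest of the 8 embryos for Foxh1 (35.9 CPM), Cfc1 (14.9), Gdf1 (18.3) and Dand5 (11.98). The lateral plate markers summed to 417 CPM in replicate 1 and to between 140 and 197 CPM in the others, beside 181 to 257 CPM in Smchd1wt embryos. The part of these cells, or of the rRNA-like counts, in the Lefty values was not tested.

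**Figure D3:**
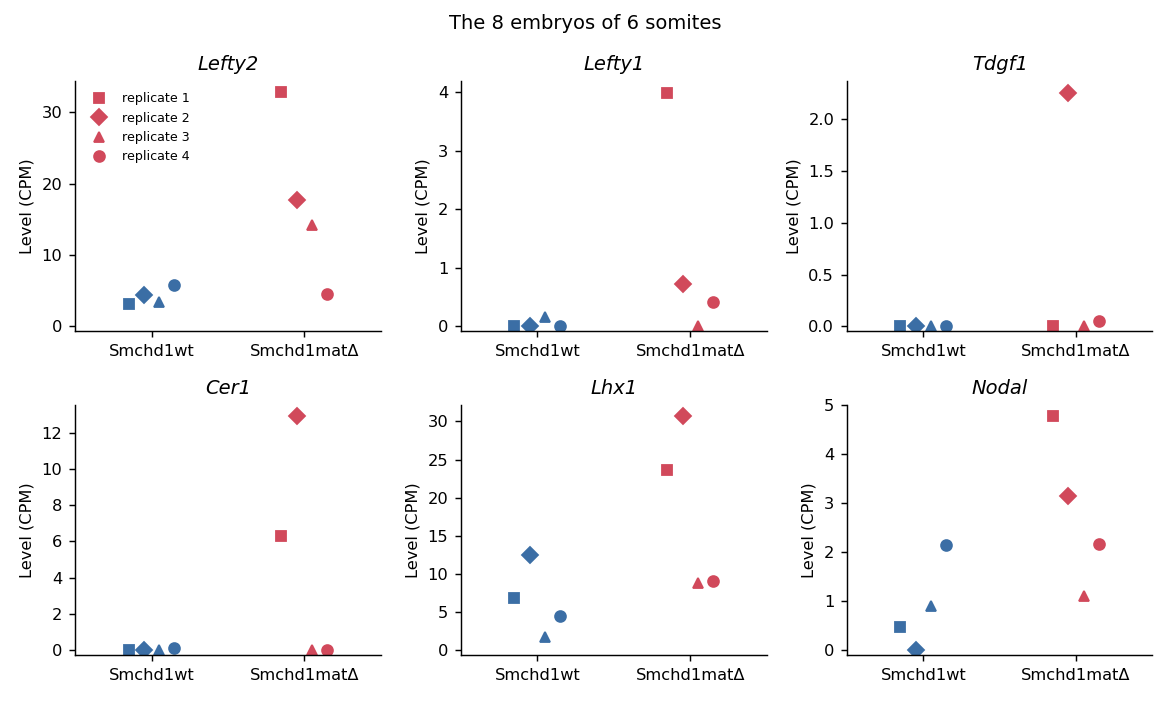
Level (CPM, linear axes) of Lefty2, Lefty1, Tdgf1, Cer1, Lhx1 and Nodal in the 8 embryos of 6 somites, with 1 symbol per replicate number and Smchd1wt in blue and Smchd1matΔ in red. Replicates 1 (square) and 2 (diamond) of Smchd1matΔ are the libraries rich in rRNA-like counts, and 1 of them holds the highest value of each gene.

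Nodal, the ligand itself (ENSMUSG00000037171, chr10:61417972-61425338), was low, with 473 counts in all. Its mean was higher in Smchd1matΔ than in Smchd1wt embryos at 5 of 6 stages. The same held at 5 stages for Gdf1 and for Dand5, at 3 for Foxh1, at 2 for Cfc1 and at 1 for Lefty2. At 6 somites it was at 0.468, 0, 0.901 and 2.15 CPM in Smchd1wt and at 4.76, 3.13, 1.09 and 2.16 CPM in Smchd1matΔ embryos. At 8 somites the levels were 0.575, 0.539 and 0.103 CPM against 0.715 and 1.94 CPM, at 9 somites 0.816, 0.578 and 0.476 against 0.942 and 1.94, and at 10 somites 0, 0.463, 0.362 and 0.205 against 0.560, 0.586 and 1.05. The genotypes did not overlap at these 3 stages, where 8.35%, 6.43% and 0.91% of genes were likewise higher in Smchd1matΔ embryos without overlap. At 7 somites (1.56, 0, 0.418 and 0.252 CPM against 1.03, 0.612 and 0.732) and at 11 somites (0.899, 0.735 and 0.338 CPM against 0.927 and 0.310) they did overlap. At 8 and 9 somites all Smchd1matΔ embryos were female, while 2 of 3 and 1 of 3 Smchd1wt embryos were male. Genotype and sex were thus partly joined in these raw levels. From 8 to 10 somites no library but the deepest (67 counts) had more than 24 counts of Nodal. In all, 15 of 16 Smchd1matΔ embryos lay above the Smchd1wt mean of their stage. That number was 12 for Gdf1, 9 for Dand5, 7 for Cfc1 and for Foxh1 and 6 for Lefty2. It was not taken over all genes, so nothing is read from it. Smchd1matΔ replicate 3 at 6 somites is among the 15 with 1 count of Nodal.

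Across stages the Nodal difference was 1.15 log2 (SE 0.32, 95% interval 0.51 to 1.80), or 2.22-fold, but its adjusted p was 0.864 by edgeR and 0.310 by DESeq2, so it did not pass the threshold over all genes. Nodal passed the low-count filter mostly through Smchd1matΔ embryos, so the size of this difference is a description. The difference was 0.97 (SE 0.32) without the 2 rRNA-rich libraries and 0.95 (SE 0.33) without the 2 shallowest libraries as well. In the window of 6 to 8 somites it was 1.53 (SE 0.50, adjusted p = 0.471), and at 9 to 11 somites 0.81 (SE 0.38, adjusted p = 0.9997). These 2 did not differ beyond their error, the difference between windows being -0.64 (95% interval -1.97 to 0.68). The slope of Nodal in Smchd1matΔ embryos was -0.32 (SE 0.12, adjusted p = 0.172), beside -0.13 (SE 0.14) in Smchd1wt embryos. It was -0.18 (SE 0.12, adjusted p = 0.539) without the 2 rRNA-rich libraries and -0.11 (SE 0.16, adjusted p = 0.814) without the 6-somite embryos.

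Gdf1, the partner of Nodal (ENSMUSG00000109523, chr8:70329817-70331587), was at 1.17 to 13.3 CPM (median 6.24) in Smchd1wt and at 1.09 to 18.3 CPM (median 8.46) in Smchd1matΔ embryos. The genotypes overlapped at each of the 6 stages. The difference was 0.42 log2 (SE 0.19, adjusted p = 0.864), and 0.31 (SE 0.19) without the 2 rRNA-rich libraries. Cers1, a ceramide synthase gene on the same transcript as Gdf1, gave 0.42 (SE 0.19), as 100% of the 75-base words of Gdf1 occur in Cers1, so the reads of the 2 genes cannot be told apart. The slope of Gdf1 in Smchd1matΔ embryos was -0.14 (SE 0.076, adjusted p = 0.355).

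The ligand Gdf3 (ENSMUSG00000030117, chr6:122605403-122610087) and the co-receptor Tdgf1 (ENSMUSG00000032494, chr9:110939603-110946158) had few counts. Gdf3 had 65 counts in all, was at 0 in 19 of 37 embryos and reached at most 1.08 CPM. Tdgf1 had 62 counts and was at 0 in 28 embryos, and 31 of these counts (2.26 CPM) came from the rRNA-rich replicate 2 of Smchd1matΔ at 6 somites. The same floor of 3 counts, 0.153 to 3.28 CPM in the libraries at 0, limits both. Of the EGF-CFC pair, Cfc1 had 2412 counts.

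Dand5, the flow-responsive antagonist (ENSMUSG00000053226), ran from 0.783 to 6.15 CPM (median 3.38) in Smchd1wt and from 1.09 to 11.98 CPM (median 3.67) in Smchd1matΔ embryos, with overlap at each stage. Its slope in Smchd1matΔ embryos was 0.0077 (SE 0.10, adjusted p = 0.985), with a direction that turned under several alternatives, and it was 0.12 (SE 0.071) in Smchd1wt embryos. The genotype difference was 0.40 log2 (SE 0.21, adjusted p = 0.865), and 0.27 (SE 0.18) without the 2 rRNA-rich libraries. Gadd45gip1, whose position the table's Dand5 overlaps on the other strand, was at 22.9 to 70.4 CPM; its part in the Dand5 counts was not tested.

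No member passed the adjusted threshold for genotype. Over all stages 0 of 6 members were called, where 0.0136% of 14733 genes were. At an unadjusted p under 0.05 there were 2 of 6, Nodal and Gdf1, both higher in Smchd1matΔ embryos, where 3.15% of all genes were higher at that level. Nodal had medians of 0.468 CPM in Smchd1wt and 0.988 CPM in Smchd1matΔ embryos. It passed the low-count filter mostly through the Smchd1matΔ embryos, where it was higher, so nothing is read from its unadjusted p in any fit. At 6 to 8 somites 0 of 6 were called (0.0069% of genes) and at 9 to 11 somites 0 of 6 (0.00671%), with 1 member, Nodal, at an unadjusted p under 0.05 in each. DESeq2 called 0 members in these 3 comparisons as well, with 2, 2 and 1 at an unadjusted p under 0.05. At single stages 0 members and 0% of genes were called by edgeR at each of the 6 stages. From 6 to 11 somites, 6, 5, 4, 5, 4 and 6 members passed the filter and were tested. Nodal was not tested at 7, 8 or 10 somites, and Lefty2 was not tested at 8, 9 or 10. Of the members tested, 2 (Nodal and Lefty2) had an unadjusted p under 0.05 at 6 somites and 0 at the others. DESeq2 gave the same member counts.

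**Figure D4:**
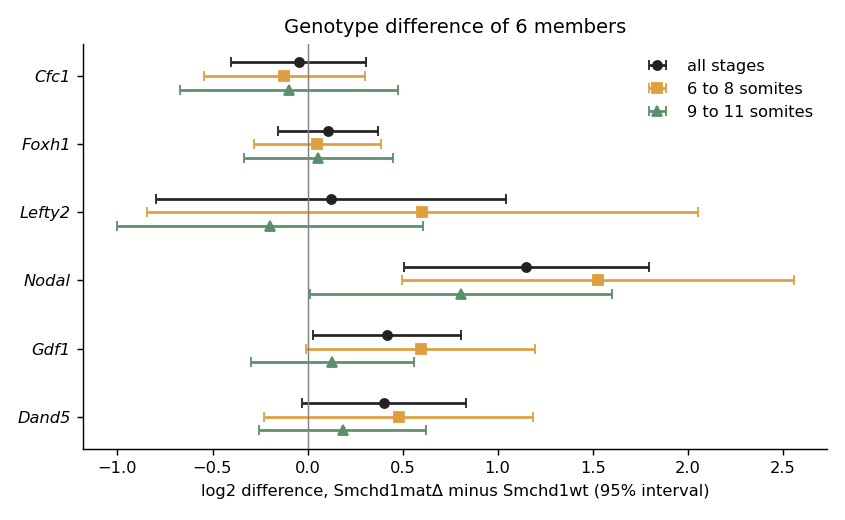
Genotype difference (log2, Smchd1matΔ minus Smchd1wt, with 95% intervals of the single gene) of the 6 members over all stages (black circles), at 6 to 8 somites (orange squares) and at 9 to 11 somites (green triangles). Nodal, which passed the low-count filter mostly through Smchd1matΔ embryos, lies highest in each fit (1.15, 1.53 and 0.81). Cfc1 and Foxh1 lie near 0 with intervals on both sides of it.

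No difference in slope between the genotypes passed the test. The difference in slope, Smchd1matΔ minus Smchd1wt, was -0.021 log2 per somite for Cfc1 (95% interval -0.23 to 0.19) and -0.041 for Foxh1 (95% interval -0.20 to 0.11). Over the 6 members it ran down to -0.35 for Lefty2 (95% interval -0.91 to 0.20). For slope difference 0 of 6 members and 0% of genes were called, with 0 members at an unadjusted p under 0.05 by edgeR and by DESeq2. The same held for the difference between windows, with 0 of 6 members and 0% of genes called and 0 members at an unadjusted p under 0.05 by either tool. For sex 0 of 6 members were called, beside 0.217% of genes; Cfc1, 0.44 log2 higher in males (SE 0.20, adjusted p = 0.9998), was the 1 member at an unadjusted p under 0.05 by edgeR, and DESeq2 also gave 1.

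Across all 37 embryos the levels of Cfc1 and Foxh1 moved together, with a Pearson r of 0.94 over log2 CPM, as a description over embryos that share stages and depth. After the mean of each genotype and stage was taken out, r was 0.69. The next member pair was Gdf1 and Dand5, with an r of 0.75 over embryos and 0.79 within groups. Cfc1 and Lefty2 had an r of 0.46 over embryos and of -0.032 within groups. Among 14732 other genes, the 3 whose pattern was most like that of Cfc1 were Foxh1, Kifc2 (r = 0.92) and Pou5f1 (r = 0.89). The 3 most like Foxh1 were Kifc2 (r = 0.96), Cfc1 and Pou5f1 (r = 0.94). Pou5f1 had a slope of -0.59 (SE 0.066, adjusted p = 4.63e-05) in Smchd1matΔ embryos, and went from a median of 35.2 CPM at 6 and 7 somites to 7.08 CPM at 10 and 11. The most like Lefty2 were Sec23b, Gm44570 and Efl1, with r of 0.67 each.

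Of 41 other genes listed for the pathway, 36 were tested for slope in Smchd1matΔ embryos, of which 2 rose and 2 fell. These were 11.1% of those tested, beside 2.95% of all genes, and the median slope was 0.0061 log2 per somite. The share counts Cer1, whose call rests on the 2 rRNA-rich libraries (below), so nothing is read from that share. Gdf11, the TGF-beta ligand of trunk-to-tail transition, rose by 0.25 log2 per somite (SE 0.031, adjusted p = 0.00012), from a median of 47.0 CPM (33.6 to 71.0) at 6 and 7 somites to 91.0 CPM (80.2 to 108) at 10 and 11. Skil, a SMAD corepressor gene, rose by 0.22 (SE 0.033, adjusted p = 0.000802), from a median of 49.7 CPM to 81.5 CPM. The slope of Skil was 0.17 (adjusted p = 0.0709) without the 6-somite embryos. Lhx1 fell, with a slope of -0.82 (SE 0.14, adjusted p = 0.00175), from a median of 9.11 CPM (2.71 to 30.7) to one of 1.15 CPM (0.434 to 4.79). Its slope was -0.69 (adjusted p = 0.0207) without the 2 rRNA-rich libraries and -0.76 (adjusted p = 0.0552) without the 6-somite embryos. Cer1 fell by the same test (slope -2.30, SE 0.48, adjusted p = 0.0164), but 218 of its 222 counts in Smchd1matΔ embryos came from the 2 rRNA-rich libraries, and the slope was 0.085 (adjusted p = 0.976) without them. In Smchd1wt embryos, the contrast behind the choice, 7 of 34 listed genes tested were called as rising and 2 as falling. This was 26.5% beside 6.61% of all genes, a description from which nothing is read. Besides Skil, Gdf11 and Lhx1, called in both genotypes, these were the receptors Acvr1b (slope 0.060, SE 0.017) and Acvr2a (0.093, SE 0.026), Smad3 (0.098, SE 0.025), the corepressor genes Tgif2 (0.089, SE 0.022) and Ski (0.084, SE 0.023) and, falling, Bicc1 (-0.11, SE 0.030). For the difference in slope between genotypes 0 of 32 listed genes tested were called, with 2 at an unadjusted p under 0.05.

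Of the receptor genes 0 of 3 tested were called for slope in Smchd1matΔ embryos and 2 in Smchd1wt embryos, beside 2.95% and 6.61% of all genes. Their median slopes were 0.051 and 0.060 log2 per somite, and 0 of 3 were called for the difference in slope. In Smchd1matΔ embryos Acvr1b was at 45.6 ± 7.00 CPM (SD, n = 16), Acvr2b at 61.8 ± 6.85 CPM and Acvr2a at 34.9 ± 7.52 CPM, whereas Acvr1c had 34 counts in all embryos. Smad2, the main transducer, was at 102 ± 10.9 CPM in Smchd1matΔ and 103 ± 9.00 CPM in Smchd1wt embryos (n = 21). Of the 10 genes of node cilia and flow sensing 0 were called in Smchd1matΔ embryos, with 2 at an unadjusted p under 0.05; among them Noto was at 8.21 ± 2.96 CPM and Foxj1, the regulator of motile cilia, at 0.704 ± 0.454 CPM in Smchd1matΔ embryos. The convertases Furin and Pcsk6 and the Notch inputs Dll1, Notch1 and Rbpj gave 0 calls of 2 and 0 of 3 there. For genotype over all stages 0 of 32 listed genes tested were called, with 3 at an unadjusted p under 0.05.

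The cell type markers that could move with these genes gave the following levels. The node and notochord list summed to 23.7 to 52.3 CPM in Smchd1wt and 29.8 to 74.7 CPM in Smchd1matΔ embryos. The epiblast list, led by Dnmt3b and Pou5f1, went from a median of 182 CPM (129 to 286) at 6 and 7 somites to 115 CPM (110 to 141) at 10 and 11, beside the fall of Cfc1 and Foxh1, and 3 of its 6 genes averaged at least 1 CPM. The lateral plate list went from 222 to 202 CPM in the median, the somite list from 12.9 to 14.8 CPM and the germ cell list from 18.4 to 14.8 CPM. Primitive erythroid markers went from 106 to 1032 CPM, and gut and visceral endoderm markers from 695 to 115 CPM. Endothelial markers went from 179 to 233 CPM, neural tube markers from 2.34 to 6.13 CPM and tailbud markers from 1073 to 974 CPM. No marker of these lists was at 0 in all embryos. The part of these cell types in the slopes was not tested.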

How the data were processed

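Tailbuds of 37 embryos were sequenced as single-end reads of 75 bases. The authors trimmed reads with Trim Galore 0.4.4, mapped them with HISAT2 2.0.5 to GRCm38.p6 and deposited raw counts per gene, made in SeqMonk; stranded and unstranded kits were used, and which library had which is not given in the sources used here. Also deposited, and not used here, were log2 RPKM values of Hox genes and the authors' own comparisons (fold changes and p-values). Of 35591 rows, 49 repeated identifiers were dropped, keeping the row with more counts. CPM values are counts scaled to TMM-adjusted library size in edgeR 4.0.16 (R 4.3.3), divided by GENCODE M21 exon length for RPKM.

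Genes passed filterByExpr at a minimum count of 10, set by genotype, or by somite number for slopes within a genotype. The quasi-likelihood test was fitted to all genes, with sex and, for genotype, stage as terms (genotype alone at single stages); p-values were two-sided and adjusted over all genes tested (Benjamini-Hochberg, threshold 0.05). DESeq2 1.42.0 served as an alternative. The test was first tested on simulated data. Samples were grouped by the labelled genotype and somite number. The members and gene lists were chosen with earlier results of these data known; from the pathway list, genes past the threshold were named, with up to 4 examples a role, and the 3 genes most like each member of at least 1 CPM. Replicates were separate libraries: all 42 within-group pairs differed beyond sampling noise (chi-square per degree of freedom 5.12 to 72.3). Counts could not resolve changes near 3 counts in a library.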

Additional observations from a re-analysis of the deposited data

Results flagged for a closer look

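In groups of 4 embryos, 5 of 33 gene and group combinations had 1 embryo far from the other 3 by Dixon's test on log2 CPM. The test's rate of 1 in 20 assumes values without ties, so it cannot be set against this number for genes mostly at 0. All 5 concern members that did not pass the low-count filter. Tdgf1 stood at 2.26 CPM (31 counts) in Smchd1matΔ replicate 2 at 6 somites, a library rich in rRNA-like counts, with 0, 0 and 1 counts in the other 3. Gdf3 stood at 0.164 CPM in Smchd1wt replicate 3 and at 0.141 CPM in Smchd1matΔ replicate 4 at 6 somites, with the other 3 of each group at 0. Lefty1 stood at 0.164 CPM in Smchd1wt replicate 3 at 6 somites and at 0.154 CPM in Smchd1wt replicate 2 at 10 somites, again with the others at 0. The last 4 values rest on 2 or 3 counts, and with the other 3 embryos tied at 0 any count would have been flagged.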

How the results depend on the processing

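The number of members called did not leave its 1.5-fold range under any alternative run (scaling, no filter, DESeq2, sex left out, females only, replicate block, doubted libraries or single embryos left out). For slope in Smchd1matΔ embryos it was, Cfc1 included, 2 to 3 when single embryos were left out, 3 with no filter (Lefty1 added), without sex or in females only (Lefty2 added), and 2 under the others. It stayed at 2 for slope in Smchd1wt embryos and at 0 for slope difference, each genotype comparison, windows, single stages and sex. The slope of Cfc1 in Smchd1matΔ embryos ran from -0.73 to -0.63 with single embryos left out and from -0.72 to -0.64 under the others. Leaving out the 6-somite embryos, and the rRNA-rich and shallowest libraries together, were chosen after seeing the data, as was leaving out the rRNA-rich libraries with no filter (2 members called).

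Directions that turned belonged to values near 0 or to Lefty2 and Cer1. Without the 2 rRNA-rich libraries Lefty2 was at -0.36 log2 over all stages and -0.36 at 6 to 8 somites, and the Cer1 slope was 0.085 (0.088 with no filter); without the shallowest too, these were -0.58, -0.76 and 0.078, and the Foxh1 genotype difference was -0.0046. By DESeq2 the Lefty2 difference over all stages was -0.043. The Dand5 slope was -0.011 without the 2 shallowest libraries and -0.11 in females only, and the Cfc1 genotype difference was 0.11 in females only. With single embryos left out, the Dand5 slope ran from -0.048 to 0.13, the Lefty2 difference over all stages from -0.094 to 0.47, the Cfc1 difference from -0.12 to 0.025 and the Lefty2 slope from -1.12 to -0.60, passing the threshold without Smchd1matΔ replicate 1 at 11 somites (-0.88, adjusted p = 0.0484). The Cer1 slope lost its call without Smchd1matΔ replicate 2 at 6 somites (-1.73) or replicate 2 at 11 somites (-2.34), and by DESeq2 (-2.13). The cause of these changes was not tested.

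Whether replicate numbers pair embryos is not said in the labels. The correlation of same-numbered embryos' deviations exceeded 0.1 in 4 of 16 pairs (-0.29 to 0.65), with 0.65 and 0.40 at 9 somites. In groups of 2 embryos the deviations from the group mean mirror each other, so this check cannot exclude pairing. With a block for replicate number within stage 0 members were called for genotype, and the Nodal difference over all stages was 1.02 log2 (SE 0.43). For slope within a genotype the block was replicate number across stages, which does not pair the genotypes. There 2 members were called in Smchd1matΔ embryos, and the Cfc1 slope was -0.66.

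Depth limits Nodal, Lefty1, Gdf3 and Tdgf1 most: in the shallowest library 3 counts equal 3.28 CPM.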

Other observations

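The genes whose levels were most like those of Dand5 over the 37 embryos were Gm9768, Gm16272 and Gm45444, with Pearson r of 0.91, 0.87 and 0.86 over log2 CPM. Those most like Gdf1, beyond Cers1 (r = 0.998), were Irf2bp1 and Il17d, with r of 0.89 and 0.88. The embryos share stages and depth, and no test was run on these values.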
